A study of Mus musculus with 12 samples.

Results

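The germline and meiosis genes described here are 37 mouse genes that act in meiotic chromosomes, in the piRNA pathway or elsewhere in germ cell development. They were followed in embryonic stem cells (ESCs) that had lost Tet enzymes. A gene counted as listed when the authors' lists of differentially methylated CpGs named it at a distance of at most 50000 bp from its transcription start site (TSS). Of the 37 members, 16 (43.2%) were listed in at least 1 of 5 lists, beside 30.3% of 21900 RefSeq protein-coding genes. At 2000 bp or less 8 (21.6%) were listed, all in lists of a knockout against WT, beside 7.28% of genes in those lists. The members held 45 of the 21805 annotated entries of the 5 lists within 50000 bp of a TSS, at 35 distinct CpGs. Of those 45 entries, 22 lay within 2000 bp. At any distance the 5 lists hold 31671 entries. The members were chosen by function, with no threshold on a measured value, but with earlier results of these data known.

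Reduced representation bisulfite sequencing (RRBS) was used, which reads bisulfite-converted DNA next to CCGG sites, the cutting sites of MspI. The 12 libraries came from clones of undifferentiated ESCs, with 3 clones each for WT and Tet1-/- and 2 each for Tet2-/-, DKO and TKO. DKO cells lack both Tet1 and Tet2, and TKO cells lack Tet3 as well. Each knockout was compared with WT, and Tet2-/- also with Tet1-/-. Each value is a difference, as the authors computed it, between the pooled clones of 2 genotypes at 1 CpG, in percentage points of methylation. All clones derive from a single Oct4:IRES:eGFP clone of a 129-derived ESC line, grown without feeders on gelatin with serum and LIF, so WT carries the reporter too. The knockouts are edited clones of that line, each with its own insertions or deletions at the guide sites. For DKO replicate 1 and TKO replicates 1 and 2 the genotype field of the labels names another knockout than the title, and the title was followed. The lists used here give no level, read depth or value for a single clone, so no spread between clones, interval or test could be given, and a CpG that is not listed may have differed by less than 25 points, missed the authors' q-value or not been covered by 10 reads. The identity of the cells could not be checked against marker genes in methylation differences alone.

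Tet enzymes oxidise 5-methylcytosine and so take part in the removal of DNA methylation. In mouse ESCs many germline genes are silent, and their CpG-rich promoters are bound by the PRC1.6 complex, whose subunits recognise E-box and E2F motifs. Methylation of such promoters is a known mark of germline genes in somatic cells, and Tet1 is known for a part in the activation of meiotic genes in primordial germ cells.

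The CpGs on which the values near the start sites rest are shown in their mm9 surroundings, 5′ to 3′ on the strand of the gene, with each listed CpG in capitals. Flanks are 30 bases, and shorter where the window lies in an untranslated stretch. Hormad2 (chr11:4341038-4341066, minus strand) and Sycp3 (chr10:87922412-87922440, plus) hold 2 listed CpGs each, Asz1 (chr6:18058937-18058998, minus) and Piwil2 (chr14:70829182-70829243, minus) 1 each, and Tdrd6 (chr17:43765925-43766036, minus) 2 that went in opposite directions. Dmrtb1 (chr4:107356129-107356193, minus) holds 2, D1Pas1 1 at its start (chr1:188791354-188791383, plus) and 2 in its coding sequence (chr1:188792150-188792215, plus), and Spata18 (chr5:74042241-74042323, plus) 3.
Hormad2: ggcctCGccgcgtgttcacacgCGgggtc
Sycp3: tgcttCGagggtgtggggacagCGacagc
Asz1: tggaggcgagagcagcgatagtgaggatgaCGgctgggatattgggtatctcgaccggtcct
Piwil2: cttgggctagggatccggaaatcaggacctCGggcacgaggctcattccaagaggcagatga
Tdrd6: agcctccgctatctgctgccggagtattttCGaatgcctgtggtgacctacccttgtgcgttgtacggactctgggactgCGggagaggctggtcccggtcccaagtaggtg
Dmrtb1: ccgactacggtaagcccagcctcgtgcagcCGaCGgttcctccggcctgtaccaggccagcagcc
D1Pas1, start: gtcgggttgatcgaCGttccgggggctccg
D1Pas1, coding: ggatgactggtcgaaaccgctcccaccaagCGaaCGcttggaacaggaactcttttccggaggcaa
Spata18: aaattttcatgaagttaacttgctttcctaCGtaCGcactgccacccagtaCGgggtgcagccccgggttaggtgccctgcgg

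Of the entries within 2000 bp of a member's TSS in the 4 knockout lists, 21 of 22 (95.5%) had higher methylation in the knockout, beside 77.3% of all listed CpGs at that distance. The single exception was a CpG of Tdrd6 in Tet2-/- cells. At 2000 to 50000 bp from the TSS 13 of 21 member entries (61.9%) were higher, beside 67.0% of all listed CpGs. Over the whole 50000 bp, 34 of 43 entries (79.1%) were higher, beside 68.8% of all. The 22 near entries come from 16 CpGs of 8 genes, several of them a few bp apart, and the 4 knockouts were set against the same WT clones, so neither the entries nor the lists are independent.

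**Figure D1:**
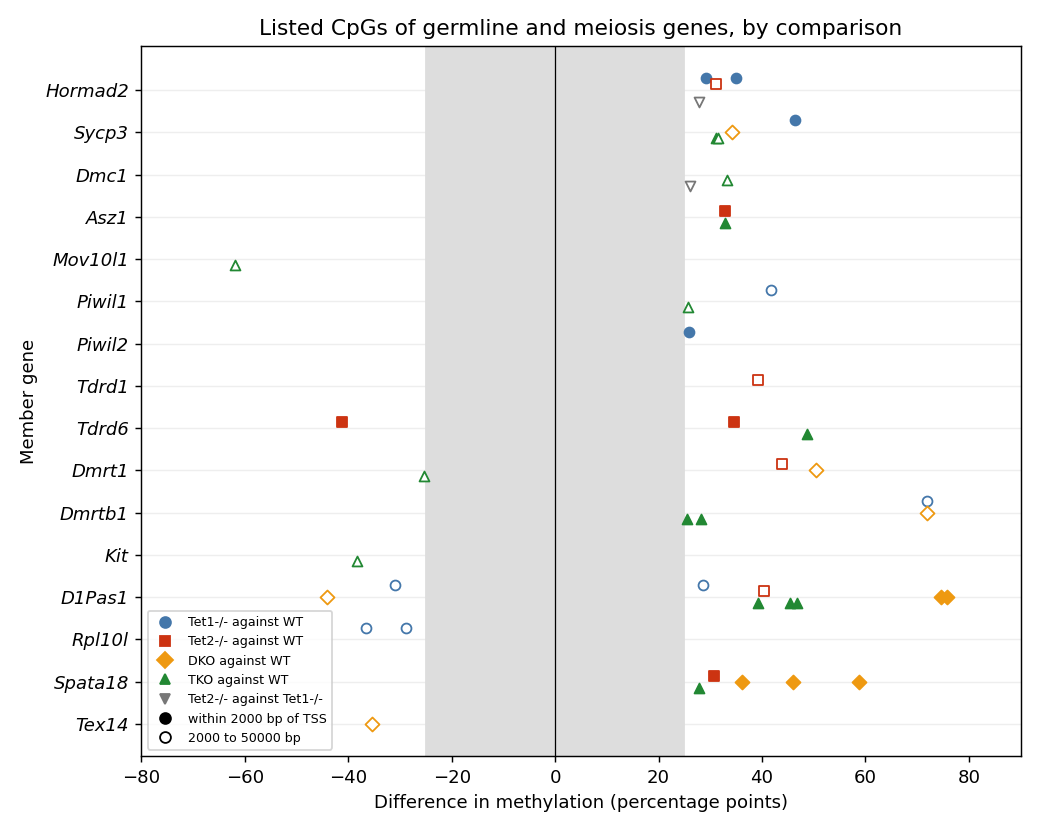
Difference in methylation against the control group, in percentage points (x axis), for every listed CpG of the 16 listed members (y axis). Filled symbols are CpGs within 2000 bp of the TSS and open symbols those at 2000 to 50000 bp, each symbol is 1 CpG in 1 comparison, and the grey band below 25 points holds no values by the authors' threshold. All filled symbols but that of Tdrd6 at -41.2 points lie to the right.

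The synaptonemal complex and chromosome axis group had 2 listed members of 8 (25%, beside 30.3% of genes), Hormad2 and Sycp3. Their 8 entries were all higher, beside 68.8% of all entries of the 5 lists within 50000 bp. With gene starts added to the pairing of the DKO annotation, Syce1, a central element protein of the synaptonemal complex, was also listed and was lower in DKO cells at +9914 bp, in its own exon (-45.0 points). Hormad2 encodes a HORMA-domain protein of the meiotic chromosome axis. In Tet1-/- cells it was higher by 34.9 points at +25 bp and by 29.1 points at +42 bp, both in its first exon, and neither CpG was listed in another knockout. Another Hormad2 CpG, intergenic at -32456 bp (chr11:4373541), was higher by 31.1 points in Tet2-/- cells.

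Sycp3 encodes a component of the lateral elements of the synaptonemal complex. In TKO cells it was higher by 31.0 points at +85 bp (chr10:87922417), and in Tet1-/- cells by 46.5 points at +102 bp (chr10:87922434). The 2 CpGs lie in the same exon, and each was listed in 1 knockout only. They also lie in an intron of Chpt1, which overlaps the start of Sycp3 in GENCODE. A distant CpG at -35550 bp, in an intron of Gnptab, was higher in DKO (34.2 points) and in TKO cells (31.5 points). Sycp1, Sycp2, Hormad1, Smc1b and Stag3 had no listed CpG within 50000 bp, and Syce1 had none without the added gene starts.

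In the recombination group Dmc1, the meiosis-specific strand exchange protein, was the only listed member of 3 (33.3%, beside 30.3% of genes). Its CpG at -3365 bp was higher by 33.2 points in TKO cells. Prdm9, which places meiotic recombination hotspots, and Spo11, which makes the double-strand breaks, had none.

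The piRNA pathway and germ granule group had 6 listed members of 12 (50%, beside 30.3% of genes), with 8 entries higher and 2 lower, beside 68.8% of all entries higher. Asz1 encodes a scaffold protein of germ granules that is needed for piRNA production. Its coding CpG at +94 bp (chr6:18058967) was higher by 32.9 points in Tet2-/- and by 32.9 points in TKO cells, with the values equal to within 1e-06 points. Piwil2, known as Mili, binds piRNAs in the fetal and adult testis. It was higher by 25.8 points at -311 bp (chr14:70829212) in Tet1-/- cells, close to the 25-point threshold.

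Tdrd6 encodes a tudor protein of the chromatoid body. At +1243 bp (chr17:43766005), in its first exon, it was higher by 34.6 points in Tet2-/- and by 48.8 points in TKO cells. The CpG at +1293 bp (chr17:43765955) was lower in Tet2-/- cells, by -41.2 points. These 2 CpGs, the first and second in capitals in the Tdrd6 line, stood in the same coding exon and moved in opposite directions in the same clones. With the added gene starts, the +1243 bp CpG was also higher by 39.2 points in DKO cells, and a CpG at +14508 bp, in the last exon, was lower (-26.0 points).

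The other listed members of this group had distant CpGs. Tdrd1, a tudor protein that binds Mili, was higher at -3422 bp in Tet2-/- cells (39.2 points). Mov10l1, the helicase that processes piRNA precursors, was lower in 1 of its own exons at +38194 bp in TKO cells (-61.9 points), which was the most negative member value within 50000 bp. The 2 CpGs assigned to Piwil1 (Miwi), at +44102 and +45862 bp, lie within Rimbp2 and were higher by 25.6 points in TKO and 41.8 points in Tet1-/- cells. Ddx4, Mael, Tdrd5, Tdrd9, Tdrkh and Rnf17 were not listed.

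**Figure D2:**
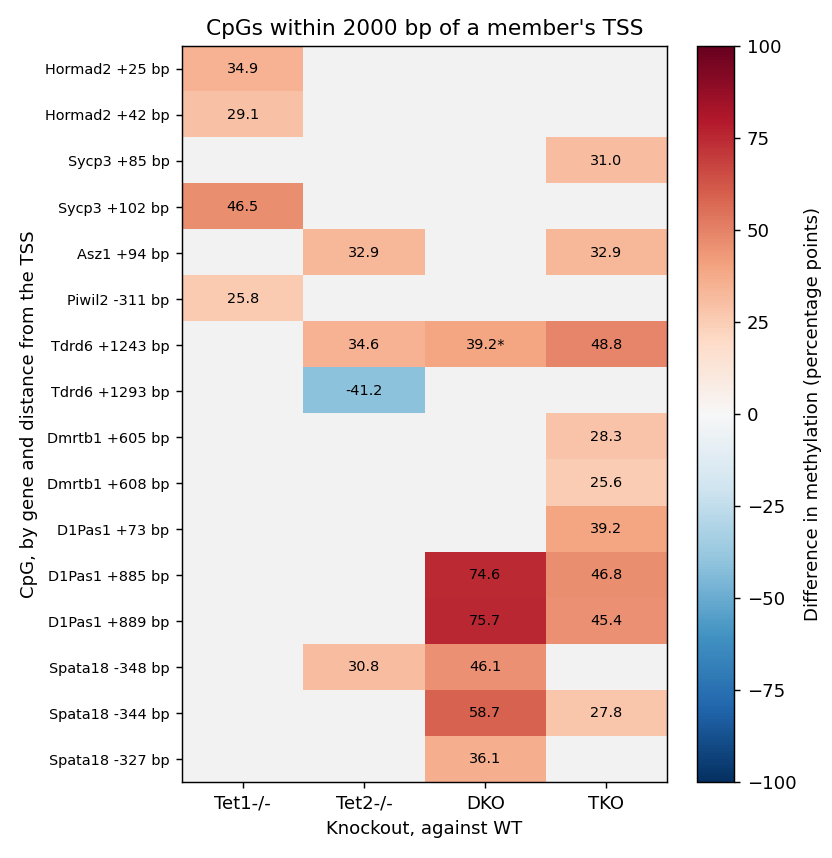
Differences in percentage points (colour and number) at the 16 listed CpGs within 2000 bp of a member's TSS (rows, with the distance from the TSS) in the 4 knockouts against WT (columns). Pale cells are not listed, the asterisk marks a DKO value paired through the gene's annotated start, and the highest values are those of D1Pas1 in DKO cells at 74.6 and 75.7 points.

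Among the germ cell regulators 3 of 5 members were listed (60%, beside 30.3% of genes). Of their entries 6 were higher and 2 lower, beside 68.8% of all entries higher. Dmrtb1, also called Dmrt6, is a DM-domain transcription factor of spermatogonia. In TKO cells it was higher by 28.3 points at +605 bp and by 25.6 points at +608 bp (chr4:107356162 and 107356159). HOMER annotated this stretch as intron 1 of Dmrtb1 and, in its detailed annotation, as a CpG island, while GENCODE has it as a coding exon. A distant CpG at +12336 bp (chr4:107344431), in a SINE repeat, was higher by 71.9 points in both Tet1-/- and DKO cells, again with equal values. Dmrt1, a DM-domain factor of the testis, was higher at -23878 bp (chr19:25556318), in a MaLR repeat, by 43.9 points in Tet2-/- and 50.4 points in DKO cells. A different CpG at -11814 bp (chr19:25568382) was lower in TKO cells (-25.3 points). Kit, the receptor for stem cell factor, was lower at 1 SINE CpG at -13239 bp in TKO cells (-38.4 points), and Sohlh2 and Nanos3 were not listed. The 2 repeat CpGs that were shared between knockouts are shown for their sequence, Dmrt1 at chr19:25556288-25556349 (plus) and Dmrtb1 at chr4:107344401-107344462 (minus).
Dmrt1, distant: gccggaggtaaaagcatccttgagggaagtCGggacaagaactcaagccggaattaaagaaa
Dmrtb1, distant: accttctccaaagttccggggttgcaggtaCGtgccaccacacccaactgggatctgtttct

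The group of other testis and germ cell genes had 4 listed members of 9 (44.4%, beside 30.3% of genes). Of their entries 12 were higher and 5 lower, beside 68.8% of all entries higher. D1Pas1 and Spata18 carried the most near entries of any member. D1Pas1 is a testis-expressed DEAD-box RNA helicase encoded by 1 exon. At +885 bp (chr1:188792180) it was higher in DKO by 74.6 points and in TKO by 46.8 points. At +889 bp (chr1:188792184) the values were 75.7 points for DKO and 45.4 points for TKO, so that both CpGs gave the larger value in DKO. The remaining CpG, at +73 bp (chr1:188791368), was higher by 39.2 points in TKO cells. The 39 bases around each of these CpGs occur once in mm9 as exact matches of unconverted sequence, and near matches were not counted.

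Farther from D1Pas1 the values went both ways. In Tet1-/- cells a CpG at +20713 bp, in a LINE repeat, was lower (-31.0 points) and another at +20942 bp was higher (28.6 points). In Tet2-/- cells the CpG at +30540 bp was higher by 40.4 points. In DKO cells the CpG at -43105 bp was lower by -44.2 points, while the 2 coding CpGs of the same clones were higher.

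Spata18, known as Mieap, encodes a protein of mitochondrial quality control that is expressed in testis. Its 3 CpGs lie within 21 bp of each other upstream of the TSS. At -348 bp (chr5:74042271) it was higher by 30.8 points in Tet2-/- and 46.1 points in DKO cells. At -344 bp (chr5:74042275) it was higher in DKO by 58.7 points and in TKO by 27.8 points, and at -327 bp (chr5:74042292) by 36.1 points in DKO cells. Spata18 was thus listed near its TSS in 3 of the 4 knockouts, and DKO had the larger value wherever it was listed with another.

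Of the remaining genes of this group, Rpl10l and Tex14 were lower at distant CpGs. Rpl10l, a testis-expressed relative of the ribosomal protein gene Rpl10, was lower in Tet1-/- cells at CpGs of an L1 repeat (-28.8 points, +24135 bp) and of an ERVK repeat (-36.6 points, -33173 bp). The 39 bases around the L1 CpG have 369 exact matches in mm9, so the reads behind that value cannot be placed by these bases alone. Tex14, which stabilises the intercellular bridges of germ cells, was lower in its own intron at +12335 bp in DKO cells (-35.5 points). Stk31, Tex15, Tex101, Brdt and Slc25a31 were not listed.

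By knockout, TKO named the most members, 11 of 37 (29.7%), beside 16.7% of the RefSeq protein-coding genes. Tet1-/- named 7 (18.9%, beside 12.5%), Tet2-/- 7 (18.9%, beside 14.1%) and DKO 6 (16.2%, beside 10.7%). The list of Tet2-/- against Tet1-/- named 2 members (5.41%, beside 9.4%). Within 2000 bp of the TSS 8 members (21.6%) were listed in any knockout, beside 7.28% of genes. These shares take no account of how many CpGs of a gene RRBS could read, and the part of that in the difference was not tested. A CCGG site was in 84.2% of the 38 promoters of members searched below, beside 52.8% of all promoters.

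Within 50000 bp the share of member entries that were higher lay closest to that of all listed CpGs in Tet1-/- and farthest from it in TKO. In Tet1-/- 7 of 10 entries (70.0%) were higher, beside 66.2% of all, with a median of 28.9 points beside 28.7. In Tet2-/- 7 of 8 (87.5%) were higher, beside 78.5%, and the medians were both 33.7 points. In TKO 12 of 15 (80.0%) were higher, beside 61.6%, with a median of 31.0 points beside 29.0. In DKO 8 of 10 (80.0%) were higher, beside 69.3%, and the median of the member entries, 48.3 points, stood above that of all entries, 31.7 points. With gene starts added to the pairing of the members, 9 entries were higher and 4 lower in DKO (69.2% higher), with a median of 39.2 points. That share lies close to the 69.3% of all entries, which was taken without the added starts.

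Near the TSS all member entries were higher in Tet1-/- (4 of 4, beside 72.6%), DKO (5 of 5, beside 80.2%) and TKO (9 of 9, beside 73.8%), and 3 of 4 in Tet2-/- (beside 82.7%). The DKO entries near the TSS had a median of 58.7 points, beside 34.3 for all DKO entries at that distance, and they came from D1Pas1 and Spata18 alone. The near medians of the other knockouts were 32.01 points in Tet1-/- (beside 29.1), 31.8 in Tet2-/- (beside 34.3) and 32.9 in TKO (beside 31.4). Between 2000 and 50000 bp the counts were 3 higher and 3 lower in Tet1-/-, 4 and 0 in Tet2-/-, 3 and 2 in DKO and 3 and 3 in TKO.

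**Figure D3:**
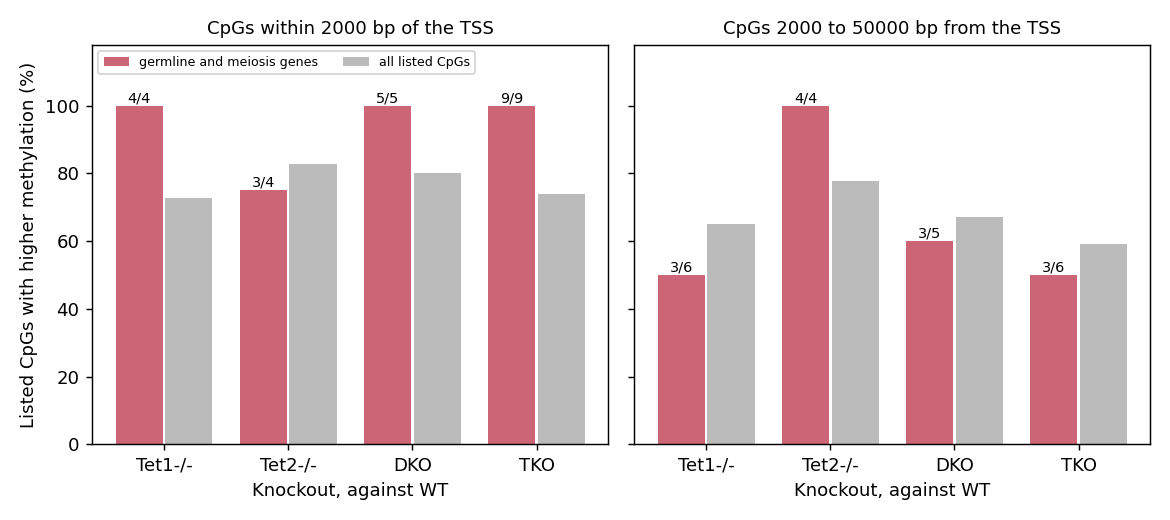
Share of listed CpGs with higher methylation in the knockout (y axis, percent) for the members (red, with the counts above the bars) and for all listed CpGs (grey), in each knockout against WT (x axis), within 2000 bp of the TSS (left) and at 2000 to 50000 bp (right). Near the TSS 3 of the 4 red bars reach 100%, on 4, 5 and 9 entries, and at a distance 1 does.

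Of the 34 member CpGs in the 4 knockout lists, 9 (26.5%) were in more than 1 list, beside 26.9% of the 14119 CpGs of these lists within 50000 bp. All 9 were in 2 lists under the pairing by promoter and distance. Since the knockouts were compared with the same WT clones, their values at a CpG are not independent. Near the TSS these CpGs were those of Asz1 and Tdrd6 (Tet2-/- and TKO), of D1Pas1 at +885 and +889 bp (DKO and TKO), and of Spata18 at -348 bp (Tet2-/- and DKO) and -344 bp (DKO and TKO). The 3 genes that Tet1-/- named near the TSS were Hormad2, Sycp3 and Piwil2.

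Set directly against each other, Tet2-/- and Tet1-/- cells differed at 2 member CpGs, and both were higher in Tet2-/-, where 68.8% of all entries of this list within 50000 bp were higher. The Hormad2 CpG at chr11:4373541 was higher by 27.9 points, beside 31.1 points for Tet2-/- against WT. The Dmc1 CpG at chr15:79447869, -12331 bp from its TSS and within an intron of 4933432B09Rik, was higher by 26.0 points. No CpG within 2000 bp of a member's TSS was in this list, so the Hormad2, Sycp3 and Piwil2 differences in Tet1-/- and those of Asz1, Tdrd6 and Spata18 in Tet2-/- are not shown to differ between the single knockouts.

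The CpGs near the start sites of members lay in CpG-rich sequence. Their surrounding 501 bp held a median of 28 CpGs (range 17 to 42), beside 15 for all 2499 listed CpGs within 2000 bp of a TSS, and a GC content of 58.8% beside 53.5%. The farthest of these member CpGs lay at +1293 bp, and the comparison was not matched for distance from the TSS. None of the 16 lay in a repeat, beside 6.0% of all. The 18 distant member CpGs had a median of 12.5 CpGs in 501 bp (range 4 to 26), beside 11 for all 11620, and 6 of them (33.3%) lay in repeats, beside 21.9%. In repeats, 4 entries of Dmrt1 and Dmrtb1 were higher and 4 entries of Kit, D1Pas1 and Rpl10l were lower. Outside repeats 32 entries were higher and 5 lower.

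**Figure D4:**
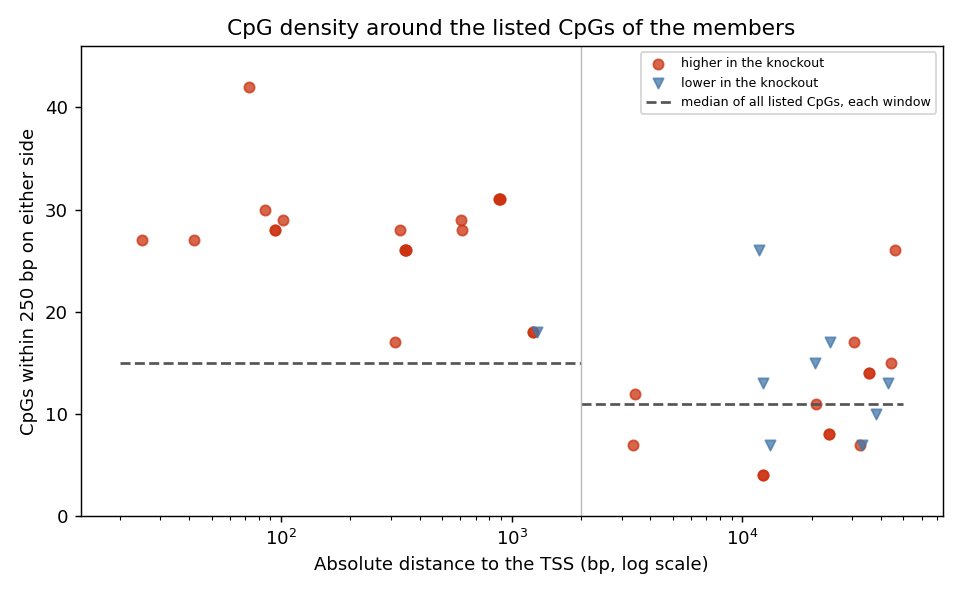
Number of CpGs in the 501 bp around each listed member CpG (y axis) against its distance from the TSS (x axis, bp, log scale), with red circles for entries higher and blue triangles for entries lower in the knockout. The vertical line stands at 2000 bp and the dashed lines are the medians of all listed CpGs in each distance class, 15 and 11, and all near member CpGs lie above theirs.

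The 21 unlisted members had CCGG sites near their starts as well. For a member with several annotated starts, the start with the most CCGG sites was counted, so the numbers are upper values. Within 2000 bp of the start the 8 members with a near listed CpG had a median of 11 CCGG sites (range 4 to 25). The 8 members listed only at a distance had 8 (range 1 to 17), and the 21 unlisted members also had 8 (range 2 to 18). Each unlisted member thus had at least 2 such sites around the start counted, although the lists do not say which of them were read. The median distance from a near member CpG to the closest CCGG was 15.5 bp, with a range of 5 to 34 bp.

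The limit of 50000 bp cut through the distant entries. Just inside it were D1Pas1 at -43105 bp (-44.2 points in DKO) and Piwil1 at +44102 and +45862 bp. Just outside were Tex14 at +55235 bp (27.9 points in Tet2-/-), Kit at -63031 bp (-42.7 points in Tet1-/-) and D1Pas1 at +63989 bp (-25.4 points in TKO).

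Promoters of the members were searched for the motifs that PRC1.6 subunits recognise. In RefSeq promoters (GRCm38.p6, 250 bases before to 50 after the start), 31 of the 37 members had 38 promoters, and Dmrt1, Piwil2, Rnf17, Spo11, Tdrd6 and Tex15 were not searched. The E-box CACGTG, which reads the same on both strands, was in 16 of them (42.1%), beside 7.15% of all 32851 promoters. The E2F-type motif GCGGGA, searched on both strands, was in 18 (47.4%), beside 19.98% of all. The median number of CpGs was 20 in the members' promoters and 7 in all promoters, and both motifs contain a CpG. These motifs do not overlap in the promoter printed here. Of the 7 promoters of the 6 searched members with a near listed CpG, which held a median of 16 CpGs, 1 held the E-box and 2 held GCGGGA, while among the 31 promoters of the other members 15 and 16 did. Of these 6 genes Sycp3 was the one with the E-box, and its 250 bases before the start (chr10:88459337-88459586, plus) are shown with 2 E-boxes and 1 GCGGGA in capitals. A match describes the letters of the window and not binding. By the distances in the lists, only the Hormad2 CpGs at +25 and +42 bp fall within 250 bases before to 50 after the start. The other near listed CpGs of these 6 genes lie outside the bases searched.
Sycp3 promoter: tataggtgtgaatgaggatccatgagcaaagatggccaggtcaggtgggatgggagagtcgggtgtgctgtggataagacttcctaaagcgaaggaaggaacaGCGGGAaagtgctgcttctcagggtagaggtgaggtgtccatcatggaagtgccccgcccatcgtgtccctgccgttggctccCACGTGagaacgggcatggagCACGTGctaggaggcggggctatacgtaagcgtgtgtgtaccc

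Taken over the 4 knockouts together, other germline genes were listed about as often, and in about the same directions, as genes at large. The directions differed between the knockouts. In 5 lists of 15 further germline genes each (75 genes), 23 genes (30.7%) were listed in the 4 knockouts, beside 28.7% of genes. Of their entries 45 were higher and 18 lower (71.4% higher, beside 68.8% of all). Within 2000 bp 15 of their 20 entries (75.0%) were higher, beside 77.3% of all, and 11 of the 15 were in Tet2-/-. By knockout 12 of the 75 (16.0%, beside 12.5%) were listed in Tet1-/-, 10 (13.3%, beside 14.1%) in Tet2-/-, 8 (10.7%, beside 10.7%) in DKO and 11 (14.7%, beside 16.7%) in TKO. Among regulators of germ cell specification, Boll, an RNA-binding protein of the DAZ family, was higher in Tet2-/- at 4 CpGs between -247 and -235 bp, by 29.98 to 54.5 points. Dazl, of the same list, is described among the other observations. In the lists of meiotic axis, recombination and piRNA genes the near entries in the 4 knockouts were few. Mei1, a gene needed for meiotic double-strand breaks, was higher by 34.9 points at +780 bp in Tet2-/- cells. Syce2, a central element protein of the synaptonemal complex, was lower at +703 bp in Tet1-/- cells (-29.4 points). Meioc was lower at -888 bp (-26.8 points) and higher at -734 bp (32.4 points) in DKO cells. Spdya was higher by 27.1 points at +767 bp in TKO cells.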

How the data were processed

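Each clone gave 1 RRBS library. Per the labels, reads were trimmed with Trim Galore 0.5 and aligned to mm9 with Bismark 0.19.1, and the study's methods name methylKit for the comparison of genotypes and HOMER for annotation. The deposited values are the authors' differences in methylation, in percentage points on a signed scale (a difference score, neither a fraction nor a level), with HOMER's distance to the nearest TSS. The authors kept CpGs with at least 10 reads, a q-value below 0.05 and a difference of at least 25 points. The lists hold the authors' own comparisons and no other measurement, and no column of per-sample values was left unused (0 columns). No test was made here, since each value already takes the clones of a genotype together.

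The DKO list carried its annotation in another row order than its coordinates. The 2 were paired again by the TSS of the named promoter, taken from the other lists, plus the distance, where this gave a unique position, which placed 5589 of 7078 entries (79.0%). Of 13 member annotations within 50000 bp, 10 were paired and 3 more (Tdrd6 and Syce1) only with gene starts of GENCODE vM1 added. The list of Tet2-/- against Tet1-/- holds cytosines of both strands, and those of the reverse strand were given the position of the forward one. At 148 CpGs also in both single-knockout lists, 140 values had the sign of Tet2-/- minus Tet1-/-, which set its direction. Positions were read from the NCBIM37 genome, which is mm9, and each member position was a CpG.

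Named genes followed a rule. Every member with a listed CpG within 2000 bp of its TSS, or with CpGs in 3 or more lists or 3 or more entries, is given with every value, and the rest by range and count. The members, their roles, the other germline gene lists and this rule were chosen with earlier results of these data known. Alternatives were a minimum of 30 or 40 points, limits of 10000 and 2000 bp, CpGs merged into regions at 200 or 1000 bp, CpGs outside repeats and the DKO annotation as deposited. Sequences near the CpGs come from mm9 and promoters from RefSeq. Scripts used Python 3.11.15, pandas 2.3.3 and pysam 0.24.0, and the pairing was tested on a list with its annotation shuffled.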

Additional observations from a re-analysis of the deposited data

How the results depend on the processing

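Both the numbers of members and the share of entries that were higher moved with the distance limit. Taking the DKO annotation as deposited reversed the DKO result, with 46.2% of entries higher (6 of 13) and a median of -25.8 points, and turned the means of Dmrt1 (-38.1 points), Dmrtb1 (-53.1) and Spata18 (-21.0) in DKO, because those rows carry the coordinates and values of other genes. With gene starts added to the pairing, DKO had 13 entries, 9 higher and 4 lower (69.2% higher), in 8 members, and a median of 39.2 points. Without repeats all Tet1-/- entries were higher (100%, 6 of 6), and the mean of D1Pas1 in Tet1-/- turned to 28.6 points. At a minimum of 40 points the listed members fell to 3 in Tet1-/-, 3 in Tet2-/- and 3 in TKO, Tet1-/- was 100% higher, and the TKO median was 46.1 points. At 30 points TKO named 7 members. Within 10000 bp the members were 3 in Tet1-/-, 4 in Tet2-/-, 2 in DKO and 7 in TKO, and within 2000 bp 3, 3, 2 and 6, with 100% of entries higher in Tet1-/-, DKO and TKO at both limits. Tet2-/- against Tet1-/- had 0 members at 30 and 40 points and within 10000 and 2000 bp. Merging CpGs into regions left every count of members as it was but lowered the share of entries higher in each knockout against WT. At 1000 bp this share was 62.5% in Tet1-/- (5 of 8) and 85.7% in Tet2-/- (6 of 7). In DKO it was 71.4% (5 of 7) and in TKO 75.0% (9 of 12). The shares over all listed CpGs were not merged in this way. No paired analysis was possible because the deposited values pool the clones of a genotype, and no clone could be left out for the same reason. Read depth per CpG was not used here, so the precision of a value near 25 points, such as that of Piwil2, is unknown.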

Other observations

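At 2 of the 9 member CpGs listed in 2 knockouts the values were equal. For Asz1 at +94 bp the difference was 32.857143 points in both Tet2-/- and TKO, and for Dmrtb1 at +12336 bp 71.900826 points in both Tet1-/- and DKO. Over all shared CpGs the share of values equal to within 1e-06 points ran from 10.7% (130 of 1210, Tet1-/- and TKO) to 20.6% (279 of 1356, Tet2-/- and DKO). The WT clones are the same in each comparison, so equal differences stand for equal methylation in the 2 knockouts where the WT value is the same.

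Dazl, an RNA-binding protein of germ cells and no member of the list, went in opposite directions in 2 knockouts at the same CpGs. In Tet2-/- cells 4 CpGs at +264 to +278 bp were higher by 60.5 to 76.6 points. In TKO cells the CpGs at +266 and +264 bp (chr17:50432679 and 50432681) were lower, by -37.7 and -39.5 points. At both CpGs the Tet2-/- value stood 100 points above the TKO value, which is the whole range of a methylation level. Dazl was picked after its values were seen.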
